A study of Mus musculus with 2 samples.

Results

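Of the 33963 genes in the count table, 7 members of the Kruppel-like factor (KLF) family were followed: Klf2, Klf3, Klf4, Klf5, Klf6, Klf9 and Klf10. They were found by their symbols, and all 7 were in the table. Their reads were summed within 5 populations of mouse cells that had been marked with tags and pooled in 1 single-cell cDNA library. The naive cells were a line of mouse embryonic stem cells that carried Rex1-GFP, and the primed cells were epiblast stem cells of the line Oct4GIP, which carries an Oct4-driven GFP and puromycin transgene. Primed cells were grown in FGF2 and Activin A, on fibronectin and then on mouse embryonic fibroblast feeders for 1 day before treatment. The d8 and d16 cells were such cells after 8 or 16 days with AICAR, an activator of the kinase AMPK, and the cytokine LIF. The paper states that feeders were needed through the 16 days of treatment, so the d8 and d16 tags may hold feeder cells. The d16+10p cells were reverted cells after 10 further passages in 2iL, a medium of kinase inhibitors and LIF that keeps cells naive. The strain label of the library was 129/Ola. The naive and primed populations were thus different cell lines, so line and state cannot be told apart between them.

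KLF proteins are zinc finger transcription factors that bind GC-rich and CACCC-type DNA, the same kind of element that the related Sp factors bind. Klf2, Klf4 and Klf5 belong to the network that keeps mouse embryonic stem cells naive, where Klf4 is known as a target of LIF and STAT3 signaling. Klf4 is also one of the factors used for reprogramming, and it is expressed in differentiated epithelia and can be induced by stress and growth factors. Klf6 and Klf10 are widely expressed, and Klf10 is known as an early response gene of TGF-beta. Klf9 is known as a glucocorticoid and thyroid hormone responsive gene, and Klf3 acts as a repressor.

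The d16 cells were split at 1000 Dppa5a CPM (counts per 1000000 reads of a cell, or of a group when summed), Dppa5a being a marker of naive cells. This left 1278 Dppa5a-high cells, 29.6% of the tag, and 3037 other d16 cells. Of the Dppa5a-high cells, 94.8% lay in clusters with high Pou5f1 (Oct4), against 2.14% of the other d16 cells. For the naive, primed and d16+10p tags, the cells in these clusters are called the core: 565 of 801 naive, 475 of 1826 primed and 937 of 1151 d16+10p cells. All 9627 d8 cells were kept together. As Dppa5a made the split, the pluripotency markers were summed without it. These 7 genes, which include Pou5f1, were at 2422 CPM in the naive core, 1482 in the primed core, 2837 in Dppa5a-high d16 and 1967 in the d16+10p core, against 396 in d8 and 481 in other d16 cells. Of the primed core, 421 cells lay in the cluster made up mostly of primed-tagged cells (home cluster), while 54 lay in other Pou5f1-high clusters. Of these 54 cells, 53 lay in the cluster that holds most Dppa5a-high d16 cells, and whether their tags are right cannot be settled from the counts. The level of the home cluster is therefore given for members where its interval did not overlap that of the primed core. The other 1351 primed-tagged cells were outside the Pou5f1-high clusters, and the study took such cells for feeders. Their 7 fibroblast markers summed to 2586 CPM, against 491 in the primed core. Epithelial markers were higher there too, at 1651 against 550 CPM, as were macrophage markers, at 1050 against 250. Primed epiblast markers were lower, at 245 against 374 CPM, but above the 196 CPM of d8 cells. The largest group of these cells, 409, lay in a cluster led by Lefty1 and Fgf15 that was 68.9% d8 cells. In that cluster 2 of 6 primed epiblast markers were at least 2-fold above the other cells. Its Pou5f1 level was 118 CPM, against 406 in the primed home cluster. The primed-tagged cells outside the Pou5f1-high clusters were thus not only fibroblast-like. The paper states that fewer primed cells were put into the pool than the 1826 that carry the primed tag here. Fewer naive cells than the 801 with the naive tag were put in as well. Whether the tags of the cells outside these clusters are right was not tested. Levels of all primed-tagged cells therefore come mostly from cells outside the Pou5f1-high clusters. Each population was 1 sample, so no difference has a replicate check, and intervals cover counting error only. Median depth ran from 8691 reads per cell in other d16 to 23764 in the naive core. Reads of macrophage markers summed to between 250 and 268 CPM in the 4 groups with high Pou5f1, against 2963 CPM in d8 cells. The source of these reads in the 4 groups was not tested. No group was sure to lack a Klf gene, so low Klf levels have no measured floor.

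The members lie on 7 chromosomes of GRCm38 (GENCODE), Klf2 at chr8:72319033-72321656, Klf3 at chr5:64803388-64832901, Klf4 at chr4:55527143-55532466, Klf5 at chr14:99298691-99315036, Klf6 at chr13:5861482-5870394, Klf9 at chr19:23141226-23168134 and Klf10 at chr15:38291463-38300706. All are protein-coding. Klf3 overlaps the antisense gene Gm20033, and the same-strand gene C230096K16Rik, and Klf9 overlaps Mir1192. Reads of overlapping genes may not be told apart. The sequences just before the start sites are shown for Klf2, Klf4 and Klf6. In Dppa5a-high against other d16 cells, Klf2 was higher, Klf6 lower and Klf4 near the same level. Each sequence is the 250 bases before the RefSeq start in GRCm38.p6, read 5′ to 3′ on the strand of the gene. Capitals mark the GC box GGGCGG and the CACCC box CCACCC on either strand. They lie at chr8:72318812-72319061 (+) for Klf2, chr4:55532476-55532725 (-) for Klf4 and chr13:5861239-5861488 (+) for Klf6.
Klf2: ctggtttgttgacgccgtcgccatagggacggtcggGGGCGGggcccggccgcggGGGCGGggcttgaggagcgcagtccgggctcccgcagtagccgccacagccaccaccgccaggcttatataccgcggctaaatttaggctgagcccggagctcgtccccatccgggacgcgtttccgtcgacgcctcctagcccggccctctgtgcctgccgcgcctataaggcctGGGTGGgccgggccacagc
Klf4: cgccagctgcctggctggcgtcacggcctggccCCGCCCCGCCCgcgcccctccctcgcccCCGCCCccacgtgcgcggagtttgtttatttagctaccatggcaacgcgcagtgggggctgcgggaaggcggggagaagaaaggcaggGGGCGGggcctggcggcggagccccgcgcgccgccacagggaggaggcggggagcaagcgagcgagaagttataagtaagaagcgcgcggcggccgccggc
Klf6: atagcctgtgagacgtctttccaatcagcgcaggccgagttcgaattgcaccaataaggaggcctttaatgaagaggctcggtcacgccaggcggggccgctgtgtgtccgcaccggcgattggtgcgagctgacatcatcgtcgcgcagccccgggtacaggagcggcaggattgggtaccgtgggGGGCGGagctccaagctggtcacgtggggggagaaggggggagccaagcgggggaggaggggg
The Klf2 window held 2 GC boxes and 1 CACCC box, the Klf4 window 4 GC boxes, counting overlapping ones, and the Klf6 window 1. Over all 32851 promoter windows of this length, 32.7% held a GC box and 28.1% a CACCC box. The STAT motif TTCNNNGAA was in 7.02% of all windows and the AP-1 motif TGANTCA in 6.75%. Neither was in these 3 windows. Of the members, Klf9 had 1 match of each. The Klf3 window held 6 GC boxes and 3 CACCC boxes. The cAMP response element TGACGTCA (1.55% of all windows), the TATA motif TATAAA (12.4%) and the serum response element (1.47%) were in none of the 5 member windows in the RefSeq table.

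Klf2 separated the cells with a naive profile from all others. It was at 245 CPM in naive (95% Poisson interval 238 to 253), 47.2 in primed (44.7 to 49.8), 41.96 in d8 (41.0 to 42.9) and 231 in d16+10p cells (225 to 237). Within d16 it was at 332 CPM in Dppa5a-high cells (324 to 339) and 55.5 in the other cells (53.1 to 58.0). The order from the highest was Dppa5a-high d16, naive, d16+10p, other d16, primed and d8, and no 2 neighbours had overlapping intervals. In the primed home cluster Klf2 was at only 31.0 CPM (27.7 to 34.7), while the 54 primed-tagged cells in other Pou5f1-high clusters were at 357 CPM (317 to 402). After thinning to 5000 reads per cell, 69.1% of Dppa5a-high d16 cells had a Klf2 read, against 19.0% of other d16 cells, 15.2% of d8 cells and 12.9% of the primed home cluster. Without thinning the shares were 87.7%, 30.7%, 34.4% and 40.6%. Thinning left out 40 Dppa5a-high, 564 other d16, 755 d8 and 10 primed home cells. The share was 9.97% in the cluster where it was lowest, which was led by Actc1 and Acta2, genes of muscle.

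Klf5, a factor that works beside Klf2 and Klf4 in naive cells, was likewise highest in Dppa5a-high d16 cells but had a smaller range over the clusters. It was at 130 CPM in naive, 46.1 in primed, 53.2 in d8, 176 in Dppa5a-high d16, 95.005 in other d16 and 138 in d16+10p cells. The intervals of naive (124 to 135) and d16+10p (133 to 142) overlapped, and no other neighbours did. The other d16 cells stood 1.77-fold above d8 for Klf5 and 1.32-fold above it for Klf2. The primed core was at 43.4 CPM Klf5 (39.5 to 47.5) and the primed home cluster at 33.8 (30.3 to 37.6).

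Klf4 did not follow the naive profile. It was at 335 CPM in naive, 201 in all primed-tagged cells, 112 in the primed core, 244 in d8, 442 in Dppa5a-high d16, 450 in other d16 and 209 in d16+10p cells. Both parts of d16 had overlapping intervals, 433 to 451 and 443 to 457, as had d16+10p and all primed-tagged cells. The lowest level was in the primed home cluster, at 94.3 CPM (88.4 to 100.5). After thinning, a Klf4 read was found in 74.2% of Dppa5a-high and 75.1% of other d16 cells. Their intervals, 71.7 to 76.7% and 73.4 to 76.8%, overlapped.

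Klf6 was lower in the groups with high Pou5f1, the primed core included, than in d8 and other d16 cells. It was at 161 CPM in naive, 231 in all primed-tagged cells, 318 in d8, 143 in Dppa5a-high d16, 403 in other d16 and 127 in d16+10p cells. The naive and primed cores were close, at 129 (123 to 135) and 121 CPM (114 to 127). All 4 groups with high Pou5f1 lay between 111 and 143 CPM, and both groups without it lay at 318 or above. After thinning, 44.2% of Dppa5a-high and 73.9% of other d16 cells had a Klf6 read.

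Klf9 was low only in the primed core among the 6 groups compared, at 68.5 CPM (63.6 to 73.6), and was at 163 CPM in the naive core, 174 in d8, 199 in Dppa5a-high d16, 179 in other d16 and 186 in the d16+10p core. Klf3 was lowest in the primed core as well, at 33.3 CPM (30.0 to 37.0), with 57.0 in the naive core, 65.1 in d8, 77.8 in Dppa5a-high d16, 63.2 in other d16 and 57.2 in the d16+10p core. Klf10 varied least over the clusters. It was at 51.4 CPM in the naive core, 47.4 in the primed core, 55.8 in d8, 83.7 in Dppa5a-high d16, 71.6 in other d16 and 48.4 in the d16+10p core. For all 3 genes the highest level was that of Dppa5a-high d16 cells.

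**Figure D1:**
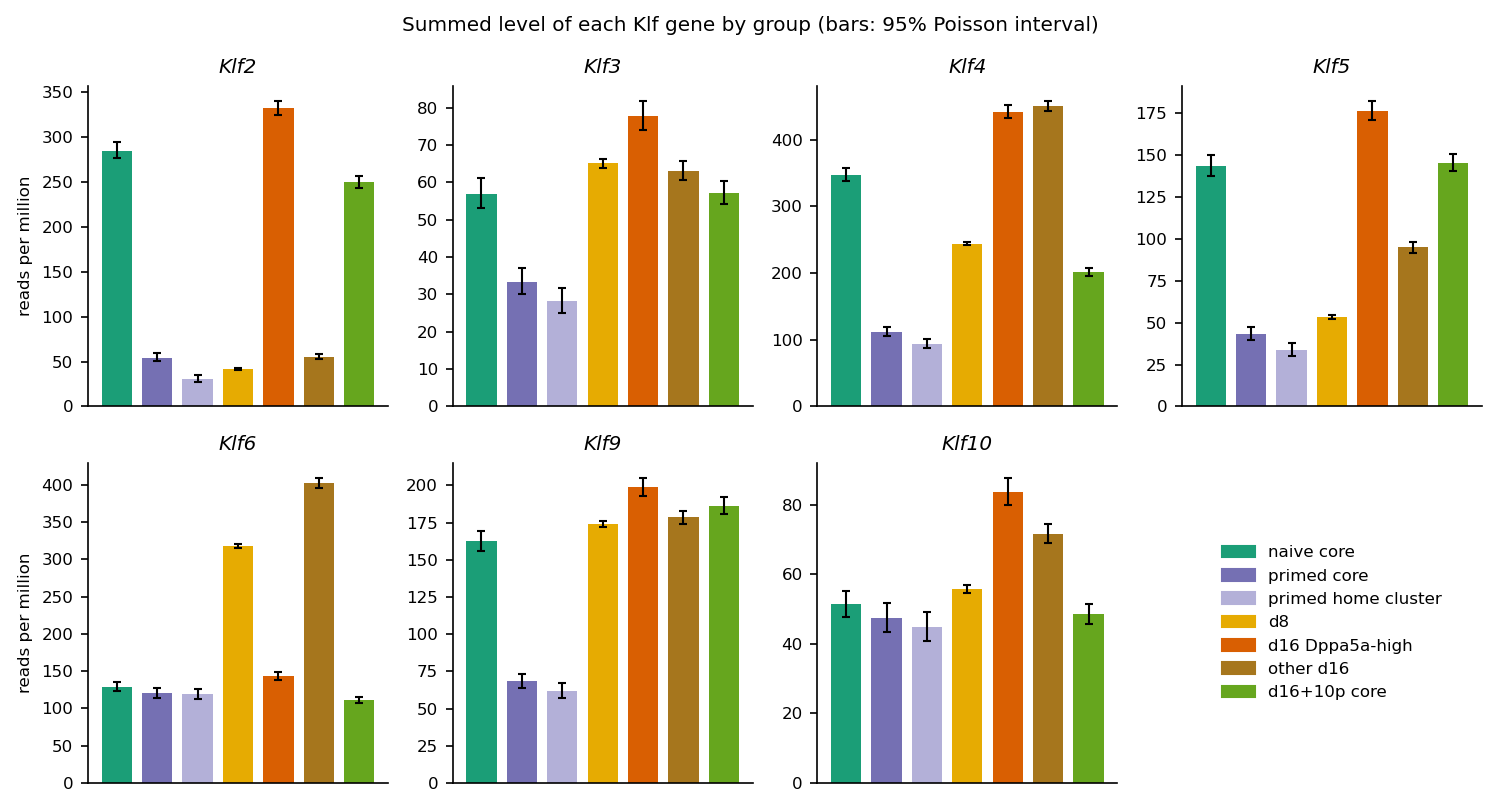
Summed level of each gene in CPM (vertical axis, from 0, its scale differing between panels) in the 6 groups compared and in the primed home cluster. Error bars are 95% Poisson intervals. Klf2 was at 332 CPM in Dppa5a-high and 55.5 in other d16 cells, while Klf6 was at 143 and 403.

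Between primed core and naive core, 4 of the 7 members were at least 2-fold lower and 0 were 2-fold higher. Over the 10192 genes that reached 10 CPM in one of the groups, 6.64% were lower and 4.3% higher by this rule. The median log2 ratio was -1.24 over the members and 0.02 over all genes. Klf2 was 5.15-fold lower in the primed core (log2 ratio -2.36, 95% interval -2.51 to -2.26), Klf5 3.26-fold, Klf4 3.08-fold and Klf9 2.36-fold. Klf6 (-0.10, -0.20 to 0.00) and Klf10 (-0.11, -0.28 to 0.05) had intervals that held 0. In home clusters the ratio was -3.20 for Klf2, -2.05 for Klf5 and -1.91 for Klf4. Taking all cells of each tag, which brings in the primed-tagged cells outside the Pou5f1-high clusters, put Klf4 at -0.73, Klf9 at -0.33 and Klf6 at 0.52.

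In d8 cells, 3 members were at least 2-fold above the primed core and 0 were below, against 13.8% higher and 8.6% lower of 10432 genes. Klf6 was 2.63-fold, Klf9 2.52-fold and Klf4 2.16-fold higher. Klf3 was 1.92-fold higher, and past 2-fold against the primed home cluster, at a log2 ratio of 1.18. The log2 ratio of Klf2 was -0.37 (-0.50 to -0.25) but 0.42 against the primed home cluster, so its direction rested on the primed-tagged cells in other Pou5f1-high clusters. Against all primed-tagged cells the ratios of Klf4, Klf6 and Klf9 were 0.28, 0.46 and 0.37.

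In Dppa5a-high d16 cells, 5 members were at least 2-fold above the primed core and 0 were below, against 8.04% and 3.19% of 10390 genes. The median was 1.53 over the members and 0.07 over all genes. Klf2 was 5.995-fold higher, Klf5 3.998-fold, Klf4 3.92-fold, Klf9 2.88-fold and Klf3 2.295-fold. The log2 ratio of Klf10 was 0.81 (0.68 to 0.96) and that of Klf6 0.25 (0.15 to 0.34). Against the primed home cluster the ratio was 3.38 for Klf2, 2.35 for Klf5 and 2.22 for Klf4. Against all primed-tagged cells Klf4 was at 1.13, Klf9 at 0.56 and Klf6 at -0.69.

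Between Dppa5a-high and other d16 cells, 1 member was at least 2-fold higher and 1 lower, against 11.2% and 16.6% of 11348 genes. Klf2 was 5.88-fold higher (log2 ratio 2.56, 2.51 to 2.65) and Klf6 2.80-fold lower (-1.49, -1.55 to -1.44). Klf5 was 1.85-fold higher (0.89, 0.82 to 0.96), and the interval of Klf4 held 0 (-0.03, -0.06 to 0.01). The shares of members past 2-fold here were near those of all genes. Between other d16 and d8 cells, 0 members were past 2-fold in either direction, against 8.96% higher and 2.84% lower of 10879 genes. This too was near the shares of all genes. Klf4 (0.88, 0.86 to 0.91) and Klf5 (0.82, 0.78 to 0.89) had the largest ratios.

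The d16+10p and naive cores were close. Of the members, 0 were past 2-fold in either direction, against 1.01% higher and 1.01% lower of 9954 genes. A count of 0 among so few members is near these shares of all genes. Klf4 differed most, at 1.72-fold lower in d16+10p (log2 ratio -0.78, -0.85 to -0.73). Klf3, Klf5 and Klf10 had intervals that held 0. Klf2 was at -0.19 (-0.25 to -0.13), where the median over genes of its chromosome, 8, was -0.20 and that over autosomal genes 0.02. Between primed and naive cores, with Klf2 at -2.36, these medians were -0.13 and 0.01. The part of the chromosome in the Klf2 ratios was not tested. Compared with Dppa5a-high d16 cells, 1 member, Klf4, was at least 2-fold lower in the d16+10p core and 0 were higher, against 1.66% and 0.667% of 10193 genes. Klf4 was 2.19-fold lower (-1.13, -1.19 to -1.08), and Klf10 followed at -0.78. TMM scaling moved the ratios of this comparison by 0.13, put Klf4 at -0.9997, just short of 2-fold, and changed the share of higher genes among those past 2-fold from 28.7% to 44.2%. It also turned the sign of Klf9, from -0.09 to 0.04.

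**Figure D2:**
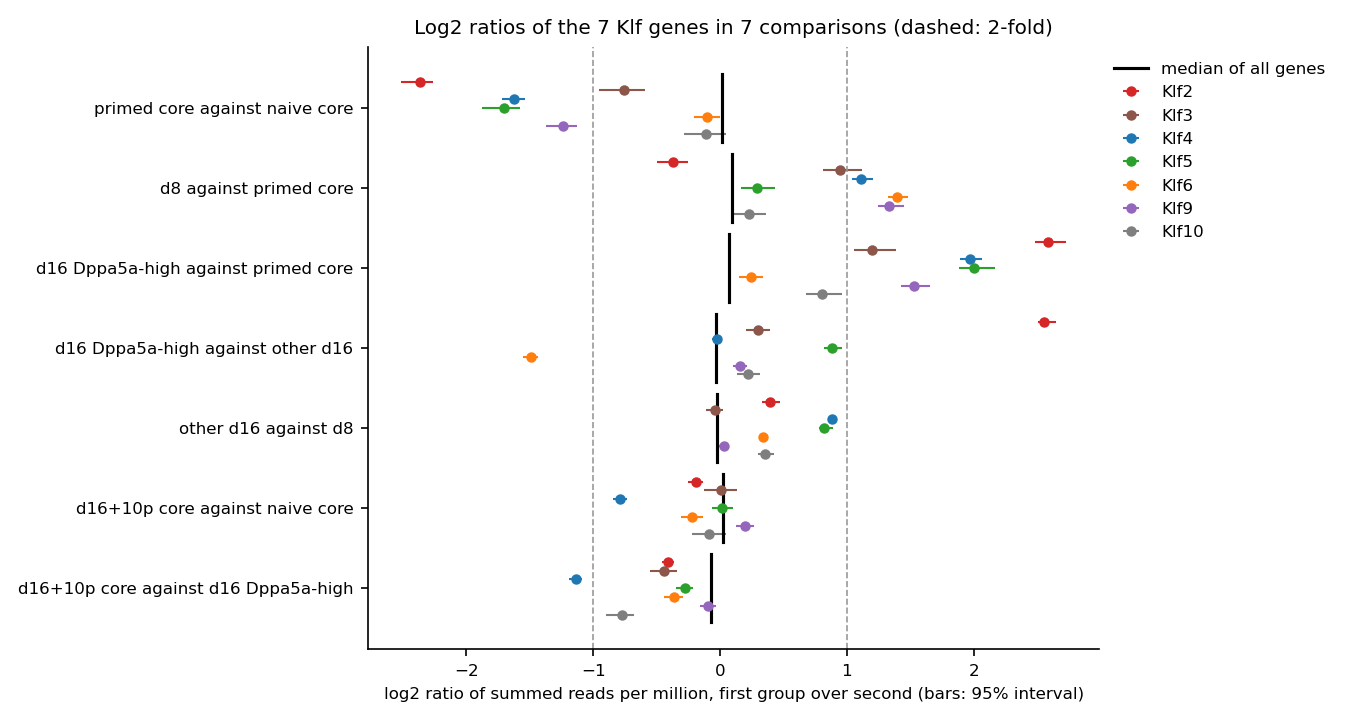
Log2 ratios of summed CPM (horizontal axis, first group over second) of the 7 genes in 7 comparisons (rows), with 95% exact binomial intervals. Black lines are the median of all genes with at least 10 CPM, and dashed lines mark 2-fold. Against the primed core, 5 members lie past 2-fold in Dppa5a-high d16 cells. Between d16+10p and naive cores none does, which is near the share of all genes.

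Across d16 cells, Klf2 and Klf6 differed in steps along Dppa5a. In 6 bins from below 250 to 4000 CPM Dppa5a and over, Klf2 was at 49.9996, 81.7, 141, 281, 329 and 352 CPM, and each step was upward. Klf6 was at 411, 378, 255, 198, 149 and 118 CPM, each step downward. Klf5 went from 91.9 CPM in the lowest bin to 185 in the highest. Klf4 was at 453 and 467 CPM in these bins, with its lowest value, 335 CPM, in the bin of 111 cells between 500 and 1000. The 100 cells just below the split were at 148 CPM Klf2 (128 to 171) and the 100 just above at 257 (232 to 283). Klf6 was at 258 and 202 CPM in the same cells. The median depth of a bin ran from 6745 to 14636 reads per cell, and the part of depth in these steps was not tested.

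**Figure D3:**
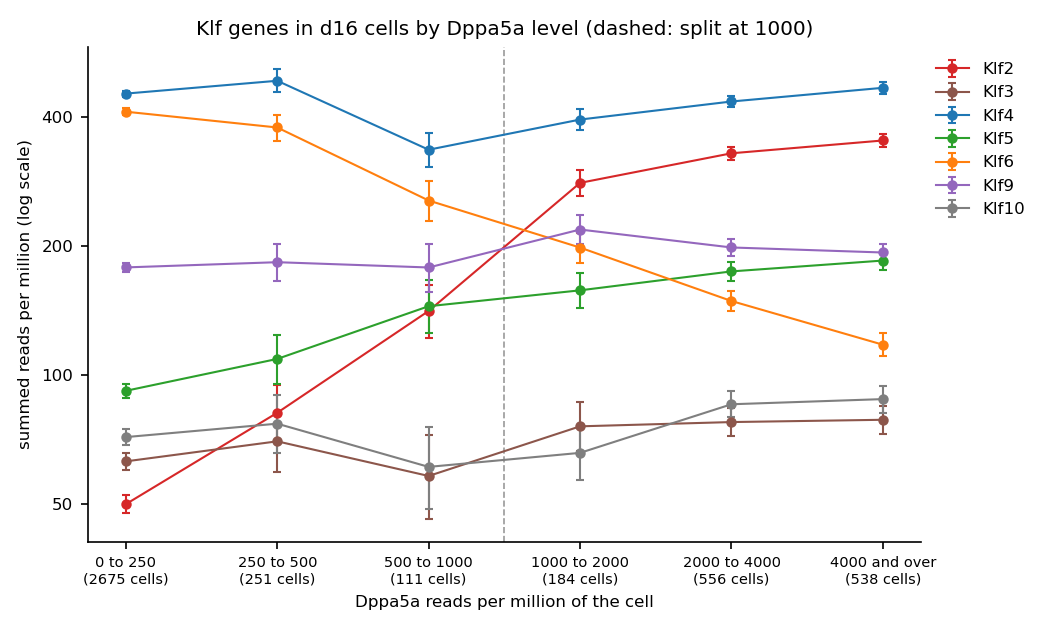
Summed CPM of the 7 genes (vertical axis, log scale) in d16 cells grouped by the Dppa5a level of the cell (horizontal axis, with cells per bin). Bars are 95% Poisson intervals and the dashed line is the split at 1000. Klf2 goes from 49.9996 to 352 CPM and Klf6 from 411 to 118, while Klf4 is at 453 and 467 in the outer bins.

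Clusters were made without any Klf or Sp gene, and 15 of the 18 held at least 100 cells. Klf2 ranged from 24.6 to 335 CPM over these, a 13.6-fold range, and the highest of the 11 clusters without high Pou5f1 reached 73.5 CPM. The ranges of the other members were smaller, at 6.09-fold for Klf4, 5.51-fold for Klf5, 3.93-fold for Klf9, 3.88-fold for Klf6, 2.78-fold for Klf3 and 2.24-fold for Klf10. Klf4 was highest outside the Pou5f1-high clusters, at 579 CPM in cluster 6, which was led by Col3a1, Itih5 and Apod and had 5 of 7 fibroblast markers at least 2-fold above the other cells. The 7 fibroblast markers summed to 3582 CPM in other d16, 1772 in d8 and 578 in Dppa5a-high d16 cells, and their part in the Klf4 level was not tested. Klf6 and, outside the Pou5f1-high clusters, Klf5 were highest in cluster 3, led by Fabp7, Efnb3 and Ildr2, at 473 and 115 CPM. Both clusters held mostly d16 cells, 67.0% and 89.7%. The primed home cluster was the lowest of the 15 for Klf3, Klf4, Klf5, Klf6 and Klf9. For Klf5 its interval overlapped those of clusters 2, 8 and 13, and for Klf6 those of the Pou5f1-high clusters 5, 7 and 11. A small cluster of 56 cells with all 6 markers of the 2-cell embryo at least 2-fold above other cells had 276 CPM Klf2 (240 to 314) and 109 CPM Klf3 (87.3 to 134), the latter above every cluster of at least 100 cells.

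The same clusters also differed in immediate early genes, which respond fast to growth factors, stress and cell handling. The 15 genes of that list, among them Fos, Egr1 and Junb, summed to 7988 CPM in other d16 cells, 2909 in d8, 2325 in Dppa5a-high d16, 2130 in the naive core, 1827 in the d16+10p core and 1677 in the primed core. Clusters 3 and 6 had 9167 and 8580 CPM. Over the 11 clusters without high Pou5f1, Pearson's r with this sum was 0.79 for Klf4, 0.64 for Klf6, 0.52 for Klf5 and 0.34 for Klf2. Over all 15 clusters it was 0.57 for Klf4, 0.74 for Klf6, -0.04 for Klf5 and -0.29 for Klf2. These points share a library, and the tags differ in depth and culture. Within other d16 cells, ordered by this sum, Klf4 was at 269 CPM in the lowest tertile of cells (260 to 277), 430 in the middle and 760 in the highest (742 to 778). Klf6 was at 294, 397 and 581 CPM, Klf5 at 84.8, 97.4 and 108, and Klf2 at 47.4, 51.6 and 73.4. Median depth in these tertiles was 10115, 9108.5 and 7322 reads per cell, and its part was not tested. Dppa5a-high d16 cells were cut into tertiles of their own, the lowest ending at 1558 and the highest starting at 2344 CPM of the sum. The lowest tertile of other d16 cells ended at 5856 CPM, so the tertiles of these groups lie at unlike levels. In Dppa5a-high cells Klf4 was at 426, 440 and 459 CPM, Klf6 at 127, 122 and 179, and Klf2 at 346, 346 and 304. In d8 cells, also cut into tertiles of their own, Klf4 was at 183, 236 and 312 CPM and Klf6 at 242, 313 and 399. The part of this response in the Klf4 and Klf6 levels was not tested.

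**Figure D4:**
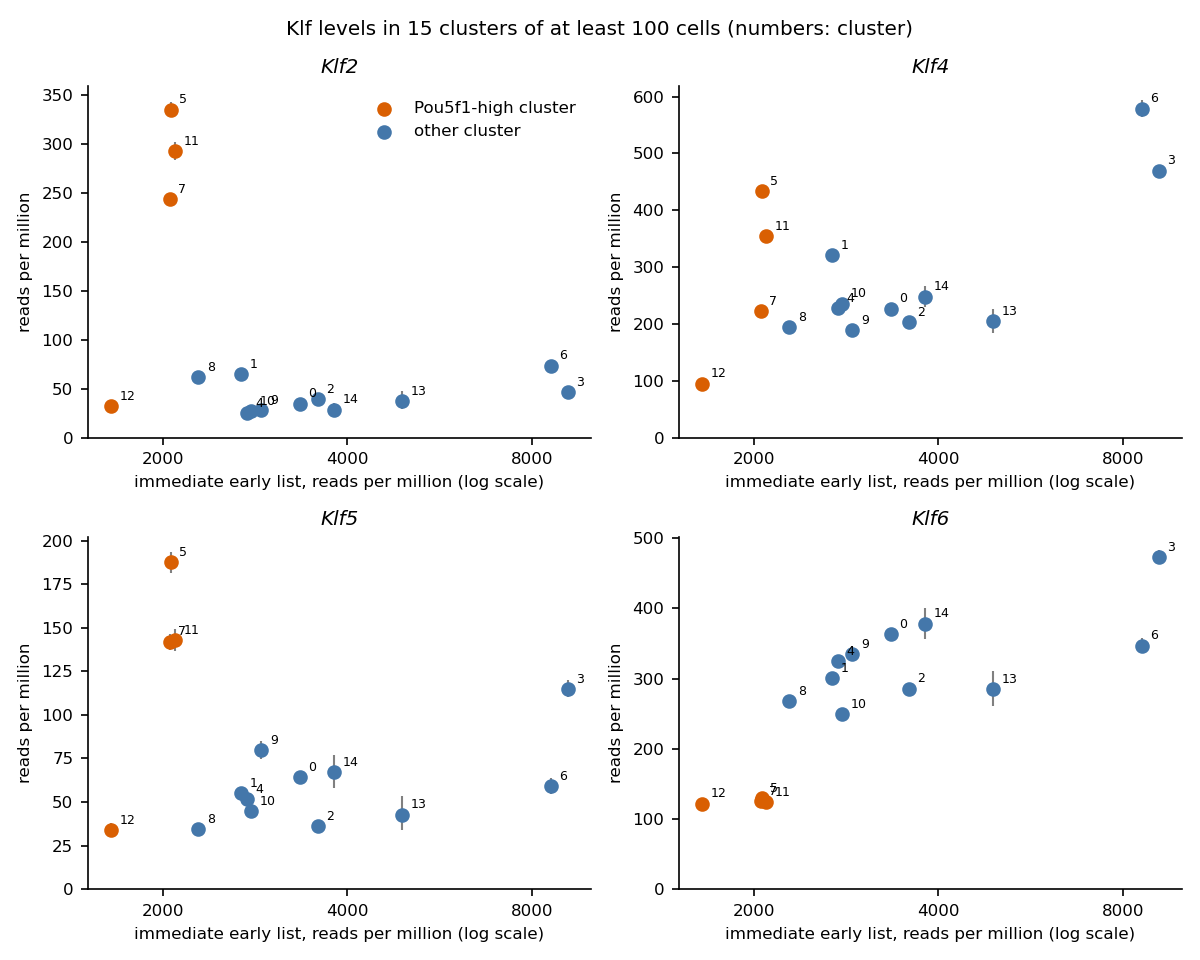
Level of Klf2, Klf4, Klf5 and Klf6 (vertical axes, CPM, from 0) against the summed immediate early list (horizontal axes, CPM, log scale) in the 15 clusters of at least 100 cells, numbered. Bars are 95% Poisson intervals. Clusters 3 and 6, at 9167 and 8580 CPM of the list, have 470 and 579 CPM Klf4, and Klf2 is above 73.5 CPM only in the Pou5f1-high clusters 5, 7 and 11.

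Cells of different tags were also compared within clusters. In cluster 6 Klf4 was at 655 CPM in 239 primed-tagged, 486 in 66 d8 and 561 in 736 d16 cells, and no 2 of the 3 intervals overlapped. In cluster 5, the home of Dppa5a-high d16 cells, Klf2 was at 340 CPM in 1185 d16 and 375 in 53 primed-tagged cells, with overlapping intervals, and Klf4 at 447 and 347 CPM, without overlap. In cluster 7, the home of d16+10p cells, 88 d16 cells had 411 CPM Klf4 against 202 in 891 d16+10p cells, and 235 against 112 CPM Klf6. The immediate early sum in those groups was 4108 and 1818 CPM, and its part in the difference was not tested. Klf2 in cluster 7 was at 231 and 249 CPM.

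Reads of Klf2, Klf4 and Klf5 were then counted within cells thinned to 5000 reads. All 3 genes had a read in 26.9% of Dppa5a-high d16 cells (exact binomial interval 24.4 to 29.5%), 24.8% of the naive core (21.2 to 28.6%) and 17.2% of the d16+10p core (14.8 to 19.8%). The share was 4.37% in other d16 cells (3.60 to 5.25%) and 0.730% in the primed home cluster (0.151 to 2.12%), where 49.9% of cells had a read of none. Other d16 cells most often had Klf4 without Klf2, at 59.5% (57.6 to 61.5%), against 21.7% of Dppa5a-high cells. Klf2 and Klf4 were read together in 15.6% of other d16 and 52.5% of Dppa5a-high d16 cells.

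**Figure D5:**
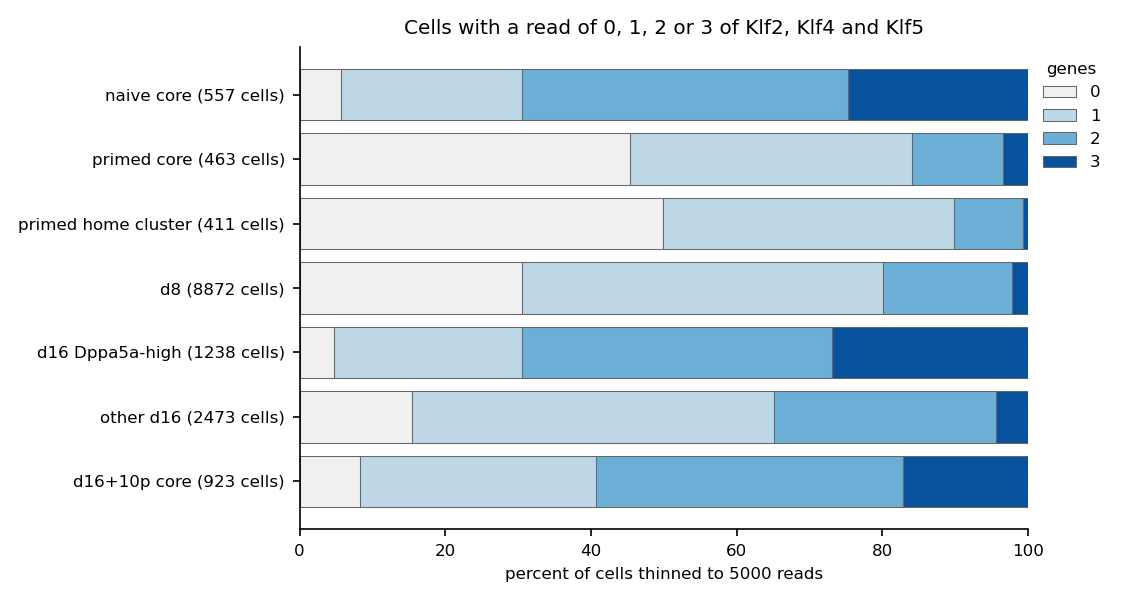
Percent of cells (horizontal axis, each cell thinned to 5000 reads) with a read of 0, 1, 2 or 3 of Klf2, Klf4 and Klf5, by group. Cells with all 3 make up 26.9% of Dppa5a-high d16, 24.8% of naive core and 0.730% of primed home cluster cells.

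Genes of related lists were counted against the same 11.2% higher and 16.6% lower of all genes in the comparison of Dppa5a-high with other d16 cells. Of the other 10 Klf genes, 5 reached 10 CPM in one of these groups. Between these groups Klf8 was higher (14.6 against 3.45 CPM), Klf7 lower (24.6 against 66.9 CPM), and the remaining 3 were within 2-fold, with Klf13 at 66.3 against 110 CPM. Of 9 Sp genes, 5 reached 10 CPM, with Sp5 (55.4 against 12.3 CPM), a target of WNT signaling, and Sp2 (30.2 against 11.1 CPM) at least 2-fold higher and Sp1 at a log2 ratio of 0.49. All 12 genes of the naive network list were at least 2-fold higher, led by Zfp42 (log2 ratio 4.04), Esrrb (3.64) and Tfcp2l1 (3.46), with a median of 3.22. Of 15 immediate early genes, 13 were at least 2-fold lower and 0 higher, led by Fosb (-2.65), Egr2 (-2.52) and Fos (-2.35). Of 9 LIF and STAT3 genes, 4 were lower and 1 higher. These included Junb (-2.21), which is also in the immediate early list, Il6st (-1.29), a subunit of the LIF receptor, and Pim1 (1.74). Of 7 early TGF-beta genes, 2 were lower, Id1 (-2.49) and Tgfbi (-2.34), and 0 higher, with Ccn2 at 0.86. Of the 4 glucocorticoid genes past 10 CPM, Fkbp5 (1.78) and Sgk1 (1.29) were higher and 2 were lower, among them Tsc22d3 (-1.15). The median of all genes was -0.03.

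The genes whose levels were most like Klf2 over the 15 clusters, among 6849 genes with at least 50 CPM in a cluster, were Pttg1 (Pearson's r of log2 levels 0.96), Rps4l (0.95), Phf11d (0.95), Dppa5a (0.95) and Mylpf (0.94). For Klf4 the closest were Tmem64 (0.84), Naxe (0.75), Hadha (0.74), Il6st (0.74) and Ech1 (0.73), and for Klf5 Agtrap (0.88), Cebpzos (0.86), Cox7a1 (0.86), Sohlh2 (0.85) and Tm7sf3 (0.85). Among the members, Klf2 and Klf5 had r = 0.75 over the 15 clusters but -0.10 over the 11 without high Pou5f1, where Klf5 and Klf6 had 0.89.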

How the data were processed

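Single cells of 5 tagged populations were captured with BD Rhapsody and sequenced as 1 pooled cDNA library. The deposited values are raw counts of reads per gene symbol and cell. The authors trimmed reads with cutadapt 2.10 and mapped them with Bowtie2 2.3.4.1 to mouse transcripts, per the methods of the study and the submitters' processing notes, and removed cells with ambiguous tags as doublets. No doublet caller was run here. The methods describe counting of reads per gene and cell, so reads of 1 molecule are not independent, and intervals cover counting error only. The submitters' notes also list Seurat 2.3.4 and the build mm10. Of the columns, 0 were of no listed tag.

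Cells were grouped by the tag that starts each column name. Clustering used Seurat 5.3.0 under R 4.3.3 (2000 variable genes, 56 principal components, 50 neighbours, resolution 0.8) after leaving out 29 Klf and Sp genes. Clusters were called Pou5f1-high where the Pou5f1 sum reached 25% of the top cluster's and a Pou5f1 read was found in 75% or more of the cells. Levels are summed counts scaled to the group's total reads (CPM). Ratios use a pseudocount of 1 CPM, with 95% exact binomial intervals computed without it. With 1 sample per population no test was made. Genes named are the members, the 3 of each list with the largest absolute ratio, and the 5 of most similar pattern for Klf2, Klf4 and Klf5. List genes are named for the comparison within d16. The members and lists were chosen with earlier results of these data known. Promoters are from RefSeq (GRCm38.p6), which held a window for 5 of the 7 members. Python 3.11.15, scipy 1.17.1 and edgeR 4.0.16 (TMM factors) were used, and simulated counts were used to test the interval coverage.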

Additional observations from a re-analysis of the deposited data

Results flagged for a closer look

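Within each tag, Pou5f1-high cells were set against the other cells of the tag, and 4 members had an interval above 0 in one tag and below 0 in another. The log2 ratio of Klf3 was 0.21 in d16 and -0.81 in primed-tagged cells. That of Klf4 was 0.30 in naive and -1.19 in primed-tagged cells. Klf9 was at 0.17 in d16+10p and -1.35 in primed-tagged cells, and Klf10 at 0.26 in d16 and -0.45 in d16+10p cells. The difference between tags was not tested. Klf2 was higher in Pou5f1-high cells of the naive, d16 and d16+10p tags, from 1.60 in d16+10p to 2.46 in d16 cells. In the primed tag its ratio was 0.35, but the primed home cluster was at 31.0 CPM (27.7 to 34.7), below the 42.6 CPM (39.6 to 45.8) of the primed-tagged cells outside Pou5f1-high clusters, so the direction rested on the 54 cells in other Pou5f1-high clusters. Klf6 was lower in Pou5f1-high cells in all 4 tags, from -1.50 in d16 to -1.19 in d16+10p.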

How the results depend on the processing

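The count of members past 2-fold stayed within 1.5 times its value in 68 alternatives and moved further in 9. Other quantities were less steady. Levels of members were tallied as moved in 28 alternatives and as the same in 14, and log2 ratios in 116 and 374. Shares of all genes past 2-fold were tallied as moved in 14 and the same in 14. Shares of cells with a read of a member were tallied as moved in 42, with none the same. With all cells of each tag, 2 members instead of 4 were past 2-fold between primed and naive cells, 0 instead of 3 between d8 and primed, and 3 instead of 5 between Dppa5a-high d16 and primed. Between other d16 and d8 cells the count of 0 became 1 with the mean of CPM per cell, 1 after thinning (Klf4 in both) and 2 at a fold of 1.5. At that fold it became 1 between d16+10p and naive cores and 2 between d16+10p and Dppa5a-high d16, where TMM scaling gave 0 instead of 1. TMM lowered the median of all genes by 0.13 between Dppa5a-high d16 and primed cells. The causes were not tested. Alternatives chosen after seeing the data were home clusters, a limit of more than 2000 and fewer than 8000 genes per cell, and leaving out the cluster of 2-cell genes. Home clusters turned the direction of Klf2 between d8 and primed. With every gene that had a read, the shares of genes past 2-fold ran from 0.348% to 8.61%, against 0.667% to 16.6% with the 10 CPM minimum. No paired analysis was possible because each population was 1 sample. Line, culture and state cannot be told apart, and depth limits shares of cells with a read.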
